A study of Nematostella vectensis with 47 samples.

Results

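The bins described here are 1-kb stretches of the Nematostella vectensis genome that were little methylated in gastrulae of an untreated cross but methylated in a juvenile sired by a drug-treated male. Every nuclear bin with at least 5 CpGs, each covered by at least 10 valid calls, in all 4 Nanopore libraries was considered, and a bin was taken when its mCG (the share of valid calls that were 5-methylcytosine, pooled over its CpGs) was below 20% in the untreated cross and at least 30% in the juvenile. This gave 242 of 235014 bins, and 242 of the 172204 bins below 20% in the untreated cross, or 0.141% of them. The bins were therefore chosen by their values in the untreated cross and in the juvenile, and those values are given as a description without a test. The sperm, the F1 gastrulae, accessibility, expression and transcription start sites took no part in the choice.

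The 4 libraries were whole gastrulae at 25 hpf of a cross of untreated parents (UntreatedxUntreated), sperm of a male that had been treated with GSK-3484862 (GSK), whole gastrulae at 25 hpf of a cross of a GSK-treated male with an untreated female (GSKxUntreated), and a whole juvenile of the GSKxUntreated cross. All were of the genotype labelled Massachussets, and the F1 animals themselves were not treated. Each condition is 1 library, and the juvenile is a single animal whereas each gastrula library pools siblings, so no difference between libraries has a replicate check. The labels do not say that the untreated cross shared a parent with the GSKxUntreated cross, and stage, parents and treatment of the father cannot be told apart between the untreated cross and the juvenile. RNA-seq, ATAC-seq and CAGE-seq came from other animals, gastrulae at 25 hpf kept in 5 µM GSK or in 0.1% DMSO (for CAGE-seq, labelled WT), and from gastrulae of the F1 GSK and F1 MO (morpholino) groups.

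In cnidarians and many other invertebrates, cytosine methylation is mosaic. It is concentrated in the transcribed bodies of active genes, while promoters and most intergenic DNA lack it. DNMT1, the enzyme that GSK blocks, copies methylation to the new strand after replication with its partner UHRF1, whereas DNMT3 enzymes can methylate unmethylated sites. The pooled measure used here does not separate the parental copies of a sequence.

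Across all nuclear CpGs, mCG was 12.3% in the untreated cross, 4.36% in the sperm, 7.33% in the F1 gastrulae and 6.80% in the juvenile, at 33.5, 61.3, 44.3 and 55.5 valid calls per CpG. In mitochondrial DNA mCG was at most 0.168% in the 4 libraries. Bins that were at 20% or more in the untreated cross had medians of 88.3% there, 26.8% in the sperm, 54.8% in the F1 gastrulae and 52.1% in the juvenile. The median of these methylated bins was thus lower in the juvenile than in the untreated cross. In the 242 bins a higher juvenile level was fixed by the choice.

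In the 242 bins the juvenile values ran from 30.01% to 87.9%, with a median of 36.5%. The untreated cross had a median of 14.9%, and 190 of the 242 bins were at 10% or more there, so most were not bare of methylation in the untreated cross. The F1 gastrulae of the same cross as the juvenile ran from 0% to 46.9%, with a median of 15.4%, close to the untreated cross. The sperm ran from 0% to 42.6%, with a median of 2.23%. Over all calls of the bins, mCG was 14.3% in the untreated cross, 5.45% in the sperm, 15.8% in the F1 gastrulae and 38.0% in the juvenile.

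**Figure D1:**
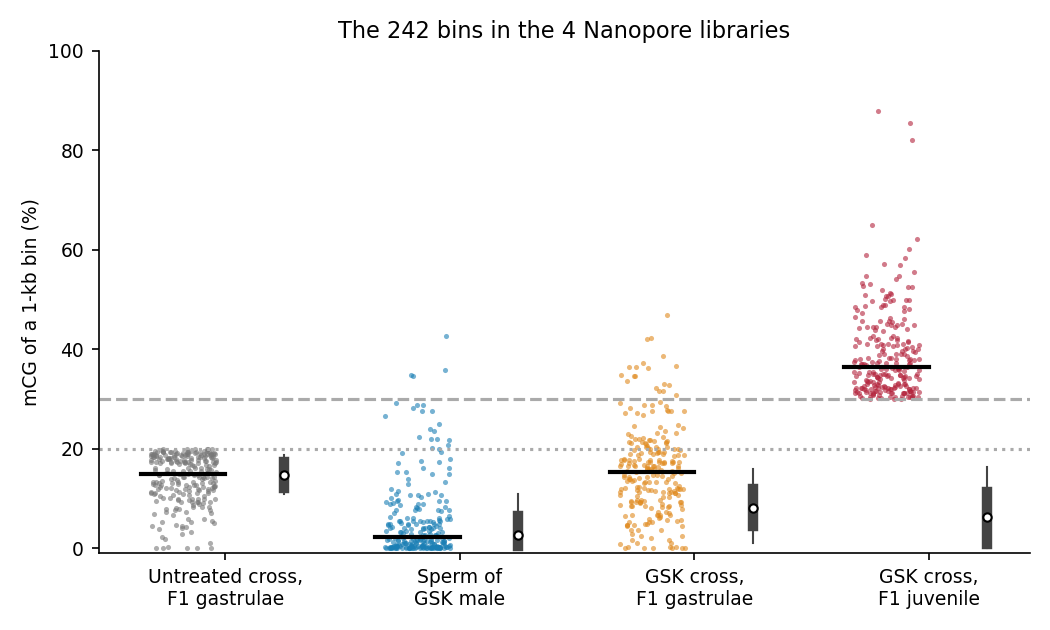
mCG (%) of 1-kb bins in the 4 Nanopore libraries. Points are the 242 bins, with horizontal bars at their medians (14.9%, 2.23%, 15.4% and 36.5% from left to right). The dark symbols beside them show the median (circle), the middle 50% (thick line) and the 10th to 90th percentile (thin line) of the 5965 other bins at 10 to under 20% in the untreated cross. The dotted line at 20% and the dashed line at 30% are the limits that chose the bins in the untreated cross and in the juvenile.

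The juvenile was above the F1 gastrulae in 239 of the 242 bins, by a median of 22.4 percentage points. The bins were chosen for at least 30% in the juvenile, so this excess and the ratio that follows are largely set by the choice. In the other bins at 10 to under 20% in the untreated cross, the medians were 8.17% in the F1 gastrulae and 6.25% in the juvenile. Where the F1 gastrulae had at least 5%, in 214 bins, the juvenile level was a median of 2.34 times the gastrula level. The F1 gastrulae themselves differed from the untreated cross by a median of 0.70 percentage points, with 131 bins higher. They were above the sperm in 202 bins. The 3 bins in which the juvenile was not above the F1 gastrulae, named for that value, lay in LOC5517399 on chromosome 1 (32.3% in the gastrulae and 31.8% in the juvenile), in LOC125561863 on chromosome 4 (36.1% and 32.2%) and in LOC5504792 on chromosome 7 (34.5% and 31.5%).

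Read against bins of like level in the untreated cross, the F1 gastrulae, which took no part in the choice, were higher in these bins. Among bins at 15 to under 20% in the untreated cross, the gastrula median was 17.95% over the 120 chosen bins and 9.87% over the others. Among bins at 10 to under 15% it was 15.5% over 70 chosen bins and 7.18% over the others, and among bins at 5 to under 10% it was 8.24% over 35 chosen bins and 3.92% over the others. The medians of the sperm differed less in this respect. They were 2.79% against 2.89% at 15 to under 20%, 3.97% against 2.37% at 10 to under 15%, and 1.24% against 1.15% at 5 to under 10%. The upper part of the sperm values was higher in the chosen bins. Its 90th percentile was 21.8% against 12.5%, 19.9% against 9.55%, and 9.30% against 5.85% in the same order. With 1 library per condition none of these differences was tested.

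Few of the bins passed the same 30% limit outside the juvenile. Of the 242 bins, 19 (7.85%) were at 30% or more in the F1 gastrulae, where 55 of the 172204 bins below 20% in the untreated cross (0.0319%) were. Those 19 bins make up 34.5% of the 55. In the sperm 4 of the 242 bins (1.65%) were at 30% or more, and they make up 23.5% of the 17 such bins (0.00987% of 172204). Most of the 172204 bins, 151822 of them, were below 1% in the untreated cross, unlike the 242. A closer comparison is with the 5965 other bins at 10 to under 20% there. Of these, 33 (0.553%) were at 30% or more in the F1 gastrulae and 10 (0.168%) in the sperm. With only CpGs covered in every library, a setting chosen after seeing the data, 219 bins met the limits. Of these, 0.457% were at 30% or more in the sperm and 9.13% in the F1 gastrulae.

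By sperm and gastrula level together, the largest class, of 125 bins, was below 10% in the sperm and at 10 to under 30% in the F1 gastrulae. Its medians were 15.9% in the untreated cross, 1.47% in the sperm, 16.9% in the F1 gastrulae and 37.2% in the juvenile. A second class of 60 bins was below 10% in both sperm and F1 gastrulae, with medians of 9.30%, 1.07%, 5.62% and 34.8%. The 11 bins that were below 10% in the sperm and at 30% or more in the F1 gastrulae had a juvenile median of 40.6%. Of the rest, 42 bins were at 10 to under 30% in the sperm and 4 were at 30% or more. The 242 bins share libraries and are not independent. Across them Pearson's r of the juvenile level was 0.17 with the F1 gastrulae and 0.16 with the sperm (Spearman's rho 0.13 and -0.0038, n = 242). That of the F1 gastrulae with the untreated cross was 0.55. The limits of the choice narrow the range of the juvenile and untreated values. These coefficients therefore describe the chosen bins only and do not show how the levels relate elsewhere.

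**Figure D2:**
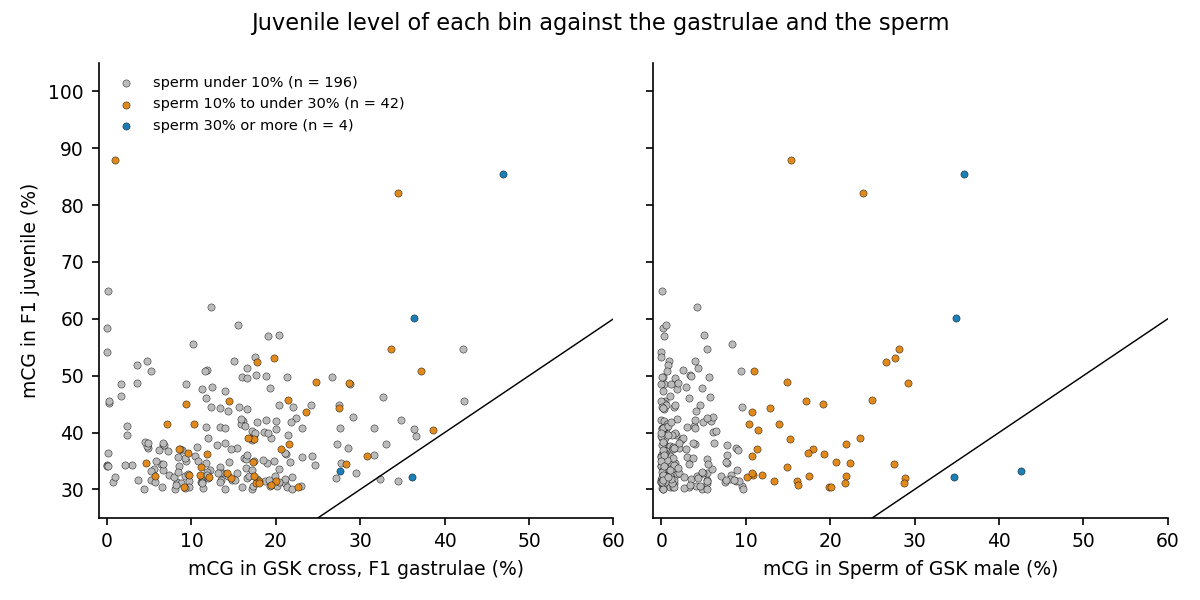
mCG in the juvenile (%) against mCG in the F1 gastrulae (left) and in the sperm (right), 1 point per bin, coloured by sperm level. The diagonal marks equal levels. All but 3 points lie above it on the left and all but 2 on the right, and 196 of the 242 bins are below 10% in the sperm.

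Depth bears on these bins. A bin held a median of 1234 valid calls in the juvenile and 768 in the untreated cross, which gives a 95% Wilson interval 5.33 and 4.77 percentage points wide. Calls on the same molecule are not independent. With 1 value per molecule (n set to the mean depth of the bin) the median widths were 26.1 and 24.6 points. The juvenile interval lay above that of the untreated cross in 241 bins over calls and in 61 bins with 1 value per molecule. It lay above that of the F1 gastrulae in 231 and 86 bins, and above that of the sperm in 238 and 216 bins. These counts are partly set by the choice of bins on the juvenile and the untreated cross. The gastrula interval lay above that of the sperm in 175 and 65 bins. Such counts were not made over other bins, so no usual share stands beside them. In the other bins at 10 to under 20% in the untreated cross, the gastrula median (8.17%) was also above the sperm median (2.58%). Intervals cover counting error only.

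The bins were also less often of usual depth, meaning 0.5 to 1.5 times the library's median in every library, than other bins. This held for 156 of the 242 bins (64.5%), against 79.5% of the other bins below 20% in the untreated cross and 83.2% of those at 10 to under 20%. In the juvenile 42 bins were below 0.5 times the median depth and 19 above 1.5 times. All 12 bins that were below 1% in the F1 gastrulae, and all 6 that were below 1% in the untreated cross, were outside the usual depth, and in 8 of the 12 and 4 of the 6 a library had under 0.5 times as many covered CpGs as another. The bin with the highest juvenile level, 87.9% in LOC125573242 on chromosome 10, rested on 5 CpGs at a mean depth of 13.2 in the juvenile, against 8 CpGs in the untreated cross. In the 156 bins of usual depth the medians were 16.9% in the untreated cross, 2.17% in the sperm, 17.02% in the F1 gastrulae and 36.7% in the juvenile. Reads with another base at the CpG made up 5.01%, 6.14%, 2.72% and 2.09% of reads over the 242 bins in the order untreated cross, sperm, F1 gastrulae and juvenile, against 4.12%, 5.04%, 1.85% and 1.42% over the other bins below 20%. With CpGs left out where over 10% of reads in any library showed another base, 223 bins met the limits, 182 of them among the 242, at 16.03% in the F1 gastrulae and 5.18% in the sperm.

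At single CpGs the juvenile was mostly at an intermediate level. Over the 6036 CpGs of the bins with at least 10 valid calls in every library, 64.7% were at 30 to under 70% in the juvenile, 6.83% were at 70% or more and 18.9% were below 10%, with a median of 41.5%. In the untreated cross 57.1% of the same CpGs were at 10 to under 30% and 0.746% at 70% or more. In the F1 gastrulae 47.1% were at 10 to under 30% and 16.7% at 30 to under 70%, and in the sperm 83.2% were below 10%. In the median bin 68.8% of CpGs were at 30% or more in the juvenile, and in 80 of 237 bins at least 80% of CpGs were, whereas in 24 bins under 50% of CpGs were. In the median bin 48.4% of CpGs were both below 20% in the untreated cross and at 30% or more in the juvenile. In 121 of the 237 bins under 50% were. The CpG shares of the juvenile and the untreated cross are partly set by the choice of bins, and CpGs of other bins were not compared.

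Single bins show how these levels lay along the DNA. They were taken by fixed rules from the 144 bins with at least 10 CpGs and usual depth in every library, and intervals in brackets are 95% Wilson intervals over calls. No sequence of these bins is shown.

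Among the 144 bins, those with the largest excess of the juvenile over the untreated cross were neighbours at chr10:11864001-11866000. The first of them, with its centre in the protein-coding gene LOC5510602 and overlapping an ATAC-seq peak, was at 18.9% (15.5 to 22.8) in the untreated cross, 23.9% (21.1 to 26.9) in the sperm, 34.5% (31.0 to 38.3) in the F1 gastrulae and 82.1% (79.4 to 84.5) in the juvenile. The second, centred 550 bp outside that gene, was at 18.8% (15.3 to 22.8), 35.8% (33.05 to 38.7), 46.9% (43.7 to 50.1) and 85.5% (83.5 to 87.3). Its 24 covered CpGs in the juvenile were all at 54.0% or more and 20 of them were at 70% or more, so the juvenile was near full methylation and not intermediate. In the gastrulae 17 of the 24 were at 30 to under 70%. The untreated cross had only 16 covered CpGs in this bin. Over those 16, which were covered in all 4 libraries, the levels were 18.8%, 28.9%, 40.3% and 88.0%.

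A bin at chr11:10771001-10772000, in LOC5502718 and 24069 bp from the nearest gene end, was at 11.1% (9.61 to 12.8) in the untreated cross, 4.27% (3.55 to 5.13) in the sperm, 12.3% (10.8 to 13.9) in the F1 gastrulae and 62.1% (59.997 to 64.3) in the juvenile. All of its 47 covered CpGs were at 47.4% or more in the juvenile, while the highest of 50 was at 27.5% in the F1 gastrulae. The ranges of single CpGs in the 2 libraries of the same cross did not overlap in this bin, which was picked for its juvenile excess. CpGs on the same molecule are not independent. Over the whole gene the juvenile was below the untreated cross and above the F1 gastrulae. LOC5502718 was at 35.6% in the untreated cross, 22.6% in the F1 gastrulae and 29.1% in the juvenile.

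The other bins of this kind lay on chromosomes 6 and 9. The bin at chr6:11209001-11210000, in LOC125567924, was at 12.8% in the untreated cross, 0.492% in the sperm, 15.5% in the F1 gastrulae and 58.9% in the juvenile, and each of its 28 CpGs was below 10% in the sperm. The bin at chr9:10581001-10582000, in LOC5512702, was at 11.1%, 5.04%, 20.3% and 57.1%, and its 16 CpGs ran from 47.3% to 87.5% in the juvenile.

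Among bins below 10% in both sperm and F1 gastrulae, the highest in the juvenile was at chr9:8614001-8615000 in LOC125572129. It was at 11.01% (8.86 to 13.6) in the untreated cross, 1.11% (0.638 to 1.94) in the sperm, 9.30% (7.55 to 11.4) in the F1 gastrulae and 48.5% (44.1 to 52.9) in the juvenile, where 14 of the 22 CpGs had enough calls. Over those 14 the levels were 15.9%, 1.49%, 12.8% and 48.5%, so the F1 gastrulae were then above 10%. In the plot of single CpGs its methylated part lay to one side of the bin's centre. The next were at chr3:16680001-16681000, where LOC5514251 and LOC116612056 overlap (8.25%, 0.385%, 6.76% and 37.8% in the same order), and at chr6:10347001-10348000 in LOC5519908 (18.4%, 1.03%, 4.70% and 37.7%). In the former all 43 CpGs were below 10% in the sperm and 34 of 43 were at 30% or more in the juvenile.

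Among bins at 30% or more in the F1 gastrulae, those lowest in the sperm had little or no methylation there and intermediate levels in gastrulae and juvenile. The bin at chr1:8439001-8440000, in LOC5520461, had 1 methylated call of 1598 in the sperm (0.0626%, 0.0110 to 0.354), 19.6% (17.3 to 22.1) in the untreated cross, 31.7% (28.9 to 34.6) in the F1 gastrulae and 40.8% (38.4 to 43.2) in the juvenile. The bin at chr6:1109001-1110000, in LOC116617231, had 2 methylated calls of 2090 in the sperm (0.0957%), 19.4% in the untreated cross, 36.3% in the F1 gastrulae and 40.6% in the juvenile. In these bins no CpG reached 70% in the juvenile, and 23 of 29 and 29 of 33 CpGs were at 30 to under 70%. The bin at chr6:7549001-7550000, in LOC5514980, was at 3.97% in the sperm, 14.3% in the untreated cross, 33.03% in the F1 gastrulae and 38.0% in the juvenile.

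Among the 144 bins, those highest in the sperm included chr10:11865001-11866000, described above. In the juvenile 0 of its 24 CpGs were below 10% and 20 were at 70% or more. The other bins highest in the sperm were of another make. The bin at chr13:83001-84000, 526 bp from LOC5508568, was at 18.8% in the untreated cross, 42.6% (40.1 to 45.1) in the sperm, 27.6% in the F1 gastrulae and 33.2% (30.6 to 35.9) in the juvenile. Its CpGs fell into 2 kinds, 14 of 32 below 10% and 15 of 32 at 70% or more in the juvenile, and 13 and 12 of 32 in the sperm. The bin at chr6:9060001-9061000 in LOC5508618 was similar in this respect, with 10 of 24 CpGs below 10% and 6 at 70% or more in the juvenile, and it had 11 covered CpGs in the untreated cross against 24 in each of the others. Its levels were 18.6% in the untreated cross, 28.8% in the sperm, 17.7% in the F1 gastrulae and 31.2% in the juvenile. Over the CpGs covered in all 4 libraries the juvenile was below the 30% limit in both of these bins, at 25.1% over 26 CpGs on chromosome 13 and 28.9% over 11 CpGs on chromosome 6.

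**Figure D3:**
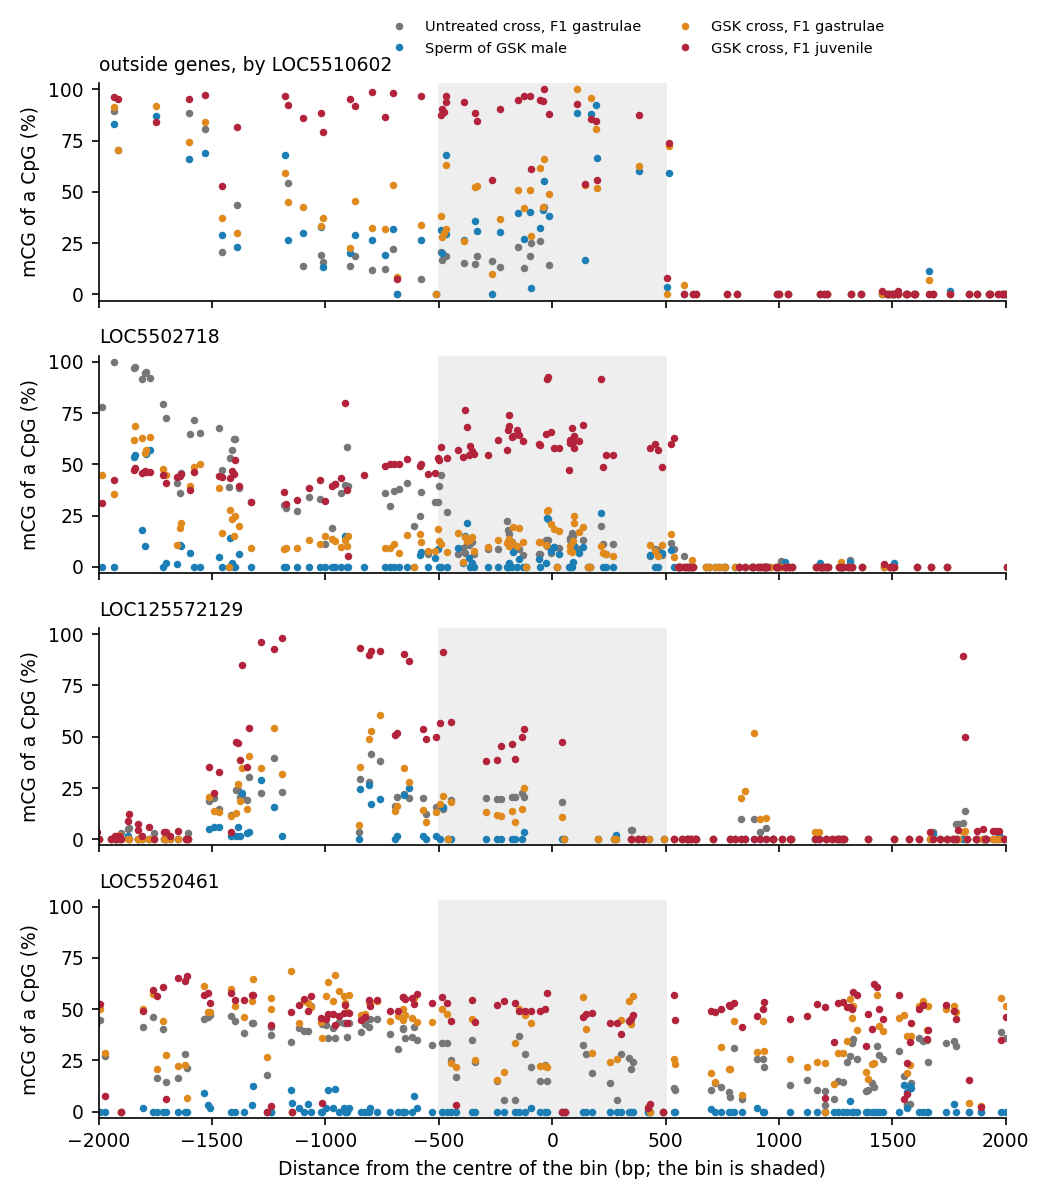
mCG (%) of single CpGs with at least 10 valid calls against distance (bp) from the centre of 4 of the named bins, which are shaded, in the 4 libraries. The juvenile is near 100% over much of the bin by LOC5510602, around 60% in LOC5502718 while the F1 gastrulae stay at or below 27.5%, around 46% in part of LOC125572129, and around 47% in LOC5520461, where the sperm is near 0%.

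The bins were unevenly spread over the genome. Chromosome 9 held 50 of them (0.457% of its bins below 20% in the untreated cross), chromosome 11 held 34 (0.314%) and chromosome 6 held 29 (0.249%), while chromosomes 4, 5 and 7 held 5 each (0.0404% to 0.0434%). Chromosomes 6, 9 and 11 together held 46.7% of the bins and 19.4% of all bins below 20%. Taken over bins at 10 to under 20% only, the shares were 8.84% on chromosome 9, 8.28% on chromosome 11 and 6.07% on chromosome 6, with 0.805% on chromosome 4. On these 3 chromosomes the chosen bins had a gastrula median of 16.8% and a juvenile median of 37.3%, and on the others 13.3% and 35.9%. At least 1 bin lay in 111 of 278 megabases, and 14 megabases with 5 or more bins held 82 of them. The densest held 9 bins, on chromosome 9 from 15 Mb.

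**Figure D4:**
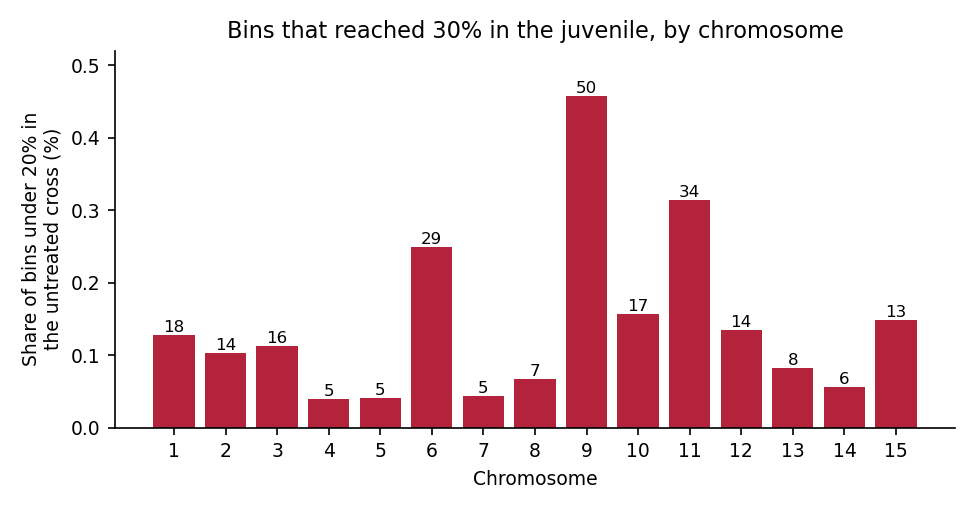
Share (%) of the bins below 20% in the untreated cross that were at 30% or more in the juvenile, for each of 15 chromosomes, with the number of bins above each bar. Chromosomes 9, 11 and 6 are the highest, at 0.457%, 0.314% and 0.249%, and chromosomes 4, 5 and 7 hold 5 bins each.

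In all, 89 of the 242 bins touched another, in 25 runs of 2, 6 of 3, 4 of 4 and 1 of 5 bins. The longest run, at chr9:10586001-10591000 over LOC116605640 and LOC5499745, was at 15.8% in the untreated cross, 2.33% in the sperm, 15.3% in the F1 gastrulae and 41.0% in the juvenile. LOC116605640 held 6 of the bins, more than any other gene, yet over its 47 bins it was at 7.97% in the untreated cross and 5.38% in the juvenile. A run of 4 bins at chr6:11207001-11211000 was at 13.2%, 1.43%, 15.7% and 48.6%, and one at chr11:7125001-7129000, in LOC5518488, was at 10.7%, 3.62%, 14.3% and 45.9%. The other runs of 4 were at chr12:8608001-8612000, in LOC5511714 (17.8%, 0.298%, 19.5% and 50.2%), and at chr10:13059001-13063000 (13.4%, 24.4%, 23.3% and 54.7%), the only one of the 4 in which the sperm was above the untreated cross. LOC5518488 was strongly methylated elsewhere. Over its 57 bins it was at 71.3% in the untreated cross, 16.2% in the sperm, 39.6% in the F1 gastrulae and 40.4% in the juvenile. In the run the juvenile therefore stood near the level of the gene as a whole.

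The bins lay beside methylated DNA more often than other bins below 20%, but less often than the other bins at 10 to under 20%. Of 238 bins with an eligible neighbour, 120 (50.4%) had a neighbour at 20% or more in the untreated cross. This held for 11.4% of the other bins below 20% and 69.0% of the other bins at 10 to under 20%. A neighbour at 50% or more was found for 48 (20.2%), against 6.68% and 45.1% in the same order. Bins with a neighbour at 20% or more had medians of 16.6% in the F1 gastrulae and 37.4% in the juvenile, and those without had 13.9% and 35.8%. Around the bins, leaving out the 242 themselves, the mean mCG at 1 kb before and after was 24.0% and 25.4% in the juvenile and 20.3% and 22.6% in the untreated cross. At 10 kb it was 15.8% and 22.1% in the juvenile and 23.6% and 30.9% in the untreated cross. At 2 kb the means of the juvenile (23.03% and 22.4%) were below those of the untreated cross (23.6% and 24.3%), whereas its medians were above them (7.33% and 11.3%, against 4.36% and 9.90%). Medians at 10 kb were at most 1.79% in both.

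**Figure D5:**
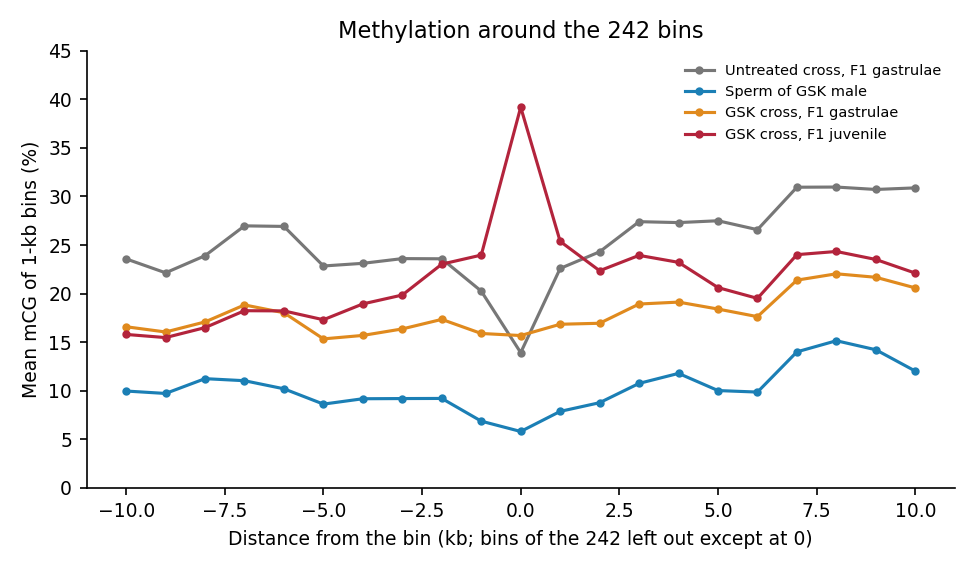
Mean mCG (%) of 1-kb bins against distance (kb) from the 242 bins, which are plotted at 0 and left out elsewhere, in the 4 libraries. The juvenile is at 39.2% at 0 and near 24% to 25% at 1 kb, and is below the untreated cross at 10 kb on both sides. The F1 gastrulae stay between 15.3% and 22.0% throughout.

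The bins resembled other weakly methylated bins in their place in genes. Of 241 bins on the numbered chromosomes, 197 (81.7%) had their centre in a gene body, against 82.8% of the other bins at 10 to under 20%, 65.7% of all other bins below 20% and 92.1% of the bins at 20% or more. Within gene bodies they lay further from gene ends, at a median of 3342 bp against 1970 bp for the other bins at 10 to under 20%. They held a median of 26 covered CpGs in the juvenile. In total 150 protein-coding genes, of 18506 with an eligible bin, and 10 lncRNA genes, of 2800, held at least 1 of the bins. Of the 150, 99 (66.0%) were methylated over the gene body (at least 10% mCG in the untreated cross), against 48.3% of all protein-coding genes. The 150 genes had a median of 16 eligible bins against 6, but a gene with more bins has more chances to hold a chosen bin. The methylated share rests on the untreated cross, which took part in the choice, and genes of like length were not compared.

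The bins carried marks of regulatory DNA less often than the other bins at 10 to under 20%, as counts without a test, since bins in a run are not independent. An ATAC-seq peak overlapped 63 (26.0%) of them, against 39.4% of the other bins at 10 to under 20% and 30.5% of all other bins below 20%. A CAGE-seq cluster, a group of transcription start sites, overlapped 1 (0.413%), against 10.1% and 5.50%. That cluster, in LOC5501260 on chromosome 1, was found in GSK replicate 2 only, with a signal of 21.4. Bins with a peak had a juvenile median of 37.2% and those without 36.2%. The libraries of accessibility and start sites are of gastrulae, and the juvenile's were not measured.

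RNA-seq asked whether genes with such bins responded when gastrulae lost methylation under GSK, in animals other than the cross. Totals were 20823699 to 29358798 counts per library. Of the 160 genes, 150 were in the count table and 143 were tested with edgeR's quasi-likelihood test over 16654 genes, at a Benjamini-Hochberg FDR below 0.01. None was called higher (0.240% of all tested genes were) and 1 was called lower (0.991% were). DESeq2 called 4 higher and 8 lower of 145, and 1.68% and 3.86% of all 17138 genes it tested. The 143 genes had a median log2 fold change of 0.028, against -0.0040 over all tested genes, and ran from -3.33 to 2.01. At an unadjusted p below 0.05 there were 34 of them (23.8%, against 19.8% of all).

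The gene called lower was LOC5505291, which holds neighbouring bins at chr3:19936001-19938000. Its normalised counts were 26.2, 28.5 and 29.0 CPM in the DMSO libraries and 8.0, 6.70 and 7.05 CPM in the GSK libraries. The log2 fold change was -1.98 ± 0.16 (SE, 3 libraries each, FDR = 0.0015 by edgeR). It was 15.5 and 20.1 CPM in the F1 GSK and 5.35 and 5.67 CPM in the F1 MO libraries, which were not tested here. The call was lost with the replicate number as a term (FDR = 0.033 by edgeR) and on leaving out 4 of the 6 libraries in turn (FDR up to 0.0275), namely DMSO replicate 2 and GSK replicates 1, 2 and 3. The log2 fold change was -1.98 with that term and -2.03 to -1.92 over the fits that left out a library. The gene body was at 63.6% mCG in the untreated cross, 18.1% in the sperm, 41.1% in the F1 gastrulae and 55.8% in the juvenile, and its 2 bins were at 17.9% and 15.9% in the untreated cross and 31.1% and 49.8% in the juvenile.

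Genes of the named bins with the largest juvenile excess were not called. LOC5510602 was at 20.6, 23.0 and 21.6 CPM in DMSO and 25.1, 19.7 and 20.9 CPM in GSK (log2 fold change -0.019 ± 0.15 SE, FDR = 0.96 by edgeR). LOC5502718 was at 47.1, 44.1 and 46.3 CPM in DMSO and 41.5, 39.0 and 43.6 CPM in GSK (-0.18 ± 0.11 SE, FDR = 0.42 by edgeR). Neither passed the test. LOC125567924, with 0.79 to 0.85 CPM in DMSO and 1.40 to 1.59 CPM in GSK, did not pass (FDR = 0.16 by edgeR). Nor did LOC5512702, with 59.4 to 61.2 and 46.5 to 54.7 CPM (FDR = 0.22 by edgeR). LOC5519908, which holds a named bin of chromosome 6, was at 21.2, 17.5 and 16.6 CPM in DMSO and 28.9, 29.5 and 32.8 CPM in GSK. It missed the threshold (log2 fold change 0.69 ± 0.14 SE, FDR = 0.031 by edgeR).

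The 63 bins with a peak touched 54 ATAC-seq peaks, and none of these was called by edgeR between GSK and DMSO gastrulae, where 1.44% of 36284 peaks were called higher and 0.229% lower. DESeq2 also called 0 of the 54, with 1.84% of all peaks higher and 0.273% lower. At an unadjusted p below 0.05 there were 2 of the 54 (3.70%, against 11.6% of all peaks). The log2 fold changes ran from -0.60 to 0.78, with a median of 0.015. The lowest FDR was that of the peak at chr9:10581499-10583318, which overlaps the named bin in LOC5512702. It was at 19.5 and 20.2 CPM in DMSO and 27.6, 36.1 and 29.6 CPM in GSK (log2 fold change 0.63 ± 0.18 SE, FDR = 0.042 by edgeR).

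The limits of the choice were not gaps in the values. Of the bins below 20% in the untreated cross, 132 were at 25 to under 30% in the juvenile, and 102 of the 242 were at 30 to under 35%. The bins nearest to 30% were at 30.01% inside (chr11:16388001-16389000 and chr6:4576001-4577000) and at 29.85% and 29.98% outside (chr2:21935001-21936000 and chr2:19956001-19957000). Among bins at 30% or more in the juvenile, 120 of the 242 were at 15 to under 20% in the untreated cross and a further 183 bins, not taken, were at 20 to under 25%. The bins nearest to 20% were at 19.99% inside (chr11:11649001-11650000 and chr9:13579001-13580000) and at 20.1% and 20.2% outside (chr9:14432001-14433000 and chr4:19263001-19264000).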

How the data were processed

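For Nanopore the authors deposited call counts of each CpG (valid, 5mC and 5hmC, strands joined), made with Dorado and modkit. Library groups came from the labels. Calls were summed over 1-kb bins, using CpGs with at least 10 valid calls in that library. Intervals are Wilson at 95%. Bins and lists were chosen with earlier results of these data known. Accessions were numbered as chromosomes 1 to 15 in order, which put 80.1% of control start sites within 500 bp of a gene end of RefSeq jaNemVect1.1 (11.9% when shifted by 1). Genes were placed only there, with biotypes and without product names, so lists by product name were not made.

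The deposited RNA-seq and ATAC-seq values are counts per gene and per merged peak, not scaled by the authors. The deposited CAGE-seq signal per cluster was normalized by a power law. Of the per-sample columns, 0 were left unused. F0 GSK was compared with DMSO using edgeR 4.0.16 under R 4.3.3 (TMM, its filter on low counts, quasi-likelihood, FDR below 0.01), with DESeq2 1.42.0 as the alternative. CPM uses total counts. P-values measure the spread between the labelled replicates. On simulated counts in which 200 features differed 4-fold, the fit found 84.5% of those genes and 92% of those peaks. Bin sums were checked against a loop. Named bins, of at least 10 CpGs and usual depth, were those with the largest juvenile excess (5), the highest juvenile level with sperm and F1 gastrulae below 10% (3), the highest sperm level (3), and the lowest sperm level with F1 gastrulae at 30% or more (3), besides the longest runs, the bins nearest the limits and called genes and peaks. EM-seq samples were not analysed here.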

Additional observations from a re-analysis of the deposited data

How the results depend on the processing

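The number of bins was 242. It was 484 with 500-bp bins, 6 with limits of 10% and 50%, and 156 with usual depth only, and 203 to 274 under 6 other settings (5 or 20 valid calls, 5mC with 5hmC, 10 CpGs, bins shifted by 500 bp, CpGs with over 10% of other bases left out). With CpGs covered in every library, chosen after seeing the data, it was 219. Over these settings except the limits of 10% and 50%, mCG of the chosen bins was 14.8% to 17.95% in the F1 gastrulae and 4.69% to 5.78% in the sperm. With those limits it was 3.46% and 1.36%, and all 6 bins were in gene bodies.

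In RNA-seq, 205 genes were called, 949 by DESeq2, 745 at FDR 0.05 and 2 with the replicate block (203 with RLE size factors, 210 without the filter). Of genes with a bin 1 was called, 12 by DESeq2, 9 at FDR 0.05 and 0 with the block. Leaving out 1 library gave 3 to 471 genes and 0 to 4 with a bin. In ATAC-seq, 605 peaks were called, 768 by DESeq2, 997 at FDR 0.05 and 533 with the replicate block. Of peaks at the bins 0 were called, 1 at FDR 0.05 and 0 with the block. Leaving out 1 library gave 222 to 894 peaks and 0 to 1 at the bins (1 without GSK replicate 1). Broodstocks were split between treatments, but no label ties a number to one. Deviations of same-numbered RNA-seq libraries had r of -0.43, -0.12 and -0.34, so the numbers were not taken as pairs. The cause of these changes was not tested.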
